A study of Homo sapiens with 6 samples.

Results

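NUDT4 and the other enzymes that make or break down inositol pyrophosphates were followed in HEY cells, an established ovarian cancer cell line, upon PQBP1 knockdown. The set held 8 of the 32679 genes in the table: the diphosphatases NUDT4, NUDT3, NUDT10 and NUDT11 and the kinases IP6K1, IP6K2, PPIP5K1 and PPIP5K2. NUDT4 was picked from its lower FPKM in the knockdown samples of this same comparison, so its values are a description with no test. The other 7 genes were taken for their place in the pathway, with earlier results of these data known. Of the 8 genes, 6 had a mean FPKM of at least 1 and entered the fit with 11413 genes in all, and NUDT10 and NUDT11 did not.

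The comparison was between 3 samples labelled shNC (genotype NC, with no treatment) and 3 labelled shPQBP1 (PQBP1 knockdown, with doxycycline, the inducer, at 1 µg/ml), all taken on day 3. By these labels the hairpin and doxycycline differ together, and their parts in any difference cannot be told apart. The lines were made by lentiviral infection and puromycin selection, and the methods describe 1 PQBP1 hairpin and more than 1 induction time. Poly(A)-selected RNA gave the libraries, which were read from both ends. The values were FPKM, fragments scaled to the transcript length and to the mapped fragments of the sample, and so can be compared between genes.

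Inositol pyrophosphates are inositol phosphates that carry a diphosphate group. The inositol hexakisphosphate kinases (IP6K1, IP6K2 and IP6K3) and the PPIP5 kinases (PPIP5K1 and PPIP5K2) add that group at different positions of the ring, and the diphosphoinositol polyphosphate phosphohydrolases (DIPPs) remove it. NUDT3, NUDT4, NUDT10 and NUDT11 encode the DIPPs of human cells, which belong to the Nudix hydrolases, and NUDT3 has also been described as an mRNA decapping enzyme. The molecules are known for tying phosphate and energy supply to phosphate export, which XPR1 carries out.

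The table held 2 more rows named after NUDT4. NUDT4B on chromosome 1 is a single-exon copy with an open reading frame, and NUDT4P2, on the same chromosome, is annotated as a processed pseudogene. To show how alike these rows are, the stretch that encodes the Nudix box, the catalytic motif of the family, is printed below from the hg38 genome with GENCODE release 44 transcripts, 69 bases each, 5′ to 3′ on the strand of the gene. Capitals mark bases that differ from NUDT4. The stretch lies at chr12:93394660-93395497 (plus strand, across 2 exons) in NUDT4, chr1:148749103-148749171 (plus) in NUDT4B, chr1:146298320-146298388 (plus) in NUDT4P2, chr6:34295677-34341921 (minus, across 2 exons) in NUDT3, chrX:51333113-51333181 (plus) in NUDT10 and chrX:51496229-51496297 (minus) in NUDT11.
NUDT4: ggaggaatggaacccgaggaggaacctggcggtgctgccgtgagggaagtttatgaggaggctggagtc
NUDT4B: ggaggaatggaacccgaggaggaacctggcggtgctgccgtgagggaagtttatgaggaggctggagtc
NUDT4P2: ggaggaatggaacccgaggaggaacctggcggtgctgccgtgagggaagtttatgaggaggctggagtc
NUDT3: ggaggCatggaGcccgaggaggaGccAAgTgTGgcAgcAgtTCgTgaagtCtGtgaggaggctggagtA
NUDT10: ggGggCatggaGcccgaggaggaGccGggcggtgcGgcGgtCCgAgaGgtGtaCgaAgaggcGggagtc
NUDT11: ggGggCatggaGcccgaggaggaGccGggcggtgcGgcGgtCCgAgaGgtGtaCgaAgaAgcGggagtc

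The 3 NUDT4 rows were identical over this stretch, whereas NUDT3 differed from NUDT4 at 16 of the 69 bases, NUDT10 at 15 and NUDT11 at 16. Over the whole coding sequence, the canonical NUDT4 transcript (540 coding bases) and NUDT4B (543) differed at no aligned base, and NUDT4B held 3 bases more. Those 3 bases form codon 86. They are present in NUDT4B and NUDT4P2 and in a longer NUDT4 isoform, and absent from the canonical isoform, whose coding exon there starts 3 bases later. The stretch around the codon is printed to show that it marks an isoform of NUDT4 rather than a copy. Capitals mark the 3 bases, and the stretches lie at chr12:93395504-93398800 (plus strand, spliced) in both NUDT4 isoforms, chr1:148749178-148749240 (plus) in NUDT4B and chr1:146298395-146298457 (plus) in NUDT4P2.
NUDT4, longer isoform: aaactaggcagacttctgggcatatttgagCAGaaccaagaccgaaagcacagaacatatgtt
NUDT4, canonical isoform: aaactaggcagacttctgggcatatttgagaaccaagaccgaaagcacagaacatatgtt
NUDT4B: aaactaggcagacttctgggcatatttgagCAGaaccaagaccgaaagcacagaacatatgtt
NUDT4P2: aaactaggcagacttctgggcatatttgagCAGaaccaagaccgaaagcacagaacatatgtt

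Sharing reached well beyond the coding sequence. Of the 9609 windows of 100 bases along the canonical NUDT4 transcript (9708 bases), 2452 (25.5%) occurred unchanged in NUDT4B, and together they covered 3440 bases between base 220 and base 3787. Seen from the copies the share was larger, since 2552 of the 3543 windows of NUDT4B (72.0%) and all 447 windows of NUDT4P2 (100%) occurred in a NUDT4 transcript. A fragment from those windows fits more than 1 row by sequence, and how it was assigned is not given in the sources used here. No window of 50 or 100 bases was shared between NUDT4 and NUDT3, NUDT10 or NUDT11. NUDT10 and NUDT11 are a near-identical pair on the X chromosome, with 99.0% identity over the coding sequence.

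**Figure D1:**
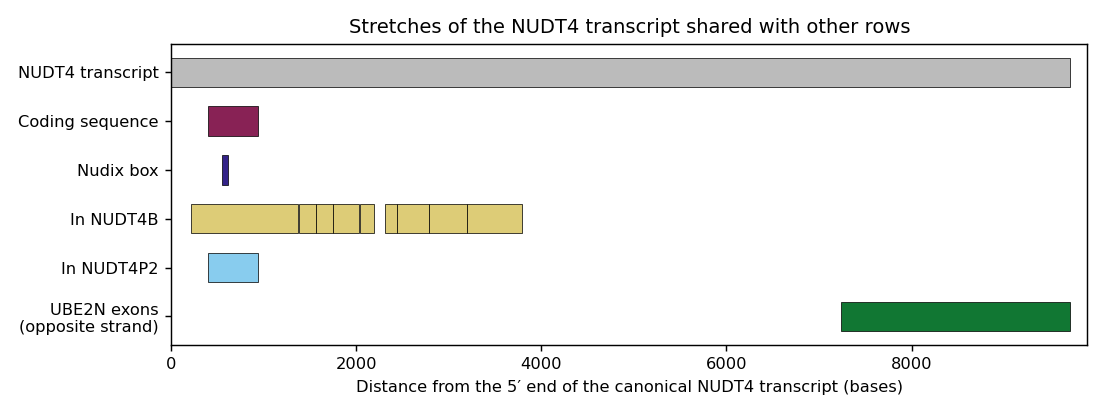
Map of the canonical NUDT4 transcript, with distance from its 5′ end in bases on the horizontal axis and 1 line per feature. The shared windows with NUDT4B span bases 220 to 3787 in stretches broken where the transcripts differ, the widest break between bases 2195 and 2317, those with NUDT4P2 cover 399 to 941, and the last 2474 bases overlap UBE2N exons on the opposite strand.

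Sequencing depth is unknown, since FPKM does not keep it. Steps of whole reads were searched for in the low values, but the search had no reference value and no depth was read from it. The FPKM of all genes summed to 278285.8 to 318484.3 per sample, and 26.5% to 29.8% of the genes were listed at 0, with the highest share in shNC 1. PQBP1 was 7.18, 6.67 and 6.93 FPKM in the shNC samples and 1.68, 1.72 and 1.44 in the shPQBP1 samples, and it fell by 2.04 on the log2 scale (SE 0.10, adjusted p = 0.00154). Every knockdown sample thus matched its label. The cells expressed the keratins KRT7, KRT8 and KRT18 (52.76 to 94.56 FPKM), VIM (1111.87 to 1342.76 FPKM) and PAX8, a marker of Müllerian epithelium (12.33 to 24.08 FPKM). WT1 was under 1 FPKM, EPCAM was near 1, MUC16 was at 0 to 0.01, and the leukocyte and endothelial markers PTPRC (0 throughout) and PECAM1 (at most 0.25) were at or near 0.

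Over all 11413 tested genes, 332 (2.91%) passed an adjusted p under 0.05, 197 of them higher upon PQBP1 knockdown (1.73%) and 135 lower (1.18%). At an unadjusted p under 0.05 there were 2689 (23.6%), with 1353 higher (11.9%) and 1336 lower (11.7%). The rule of the study's methods asks for more than a 2-fold difference and an unadjusted p under 0.05. Applied here to the fit on FPKM, where the study used edgeR, it gave 173 genes (1.52%), which is not the study's own count. In 3928 genes (34.4%) the values of the groups did not overlap. These are the shares against which the counts for the pathway are read.

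NUDT4 (ENSG00000173598, chr12:93377883-93408146, plus strand), a DIPP, was 5.46, 6.24 and 4.43 FPKM in the shNC samples and 1.26, 1.01 and 0.89 FPKM in the shPQBP1 samples. All 3 knockdown samples lay below all 3 control samples, and the lowest control sample was above the highest knockdown sample by more than 3 FPKM. The mean was 5.38 ± 0.908 FPKM in shNC and 1.05 ± 0.189 in shPQBP1 (SD, n = 3 each), a change of -80.4%. On log2(FPKM + 0.1) the difference was -2.25 (SE 0.18), a 4.75-fold lower value, next to -2.04 for PQBP1 itself. It was the 15th lowest log2 fold change of all tested genes, given as a rank of size only. In bulk RNA, fewer cells with NUDT4 transcripts and fewer transcripts per cell cannot be told apart.

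**Figure D2:**
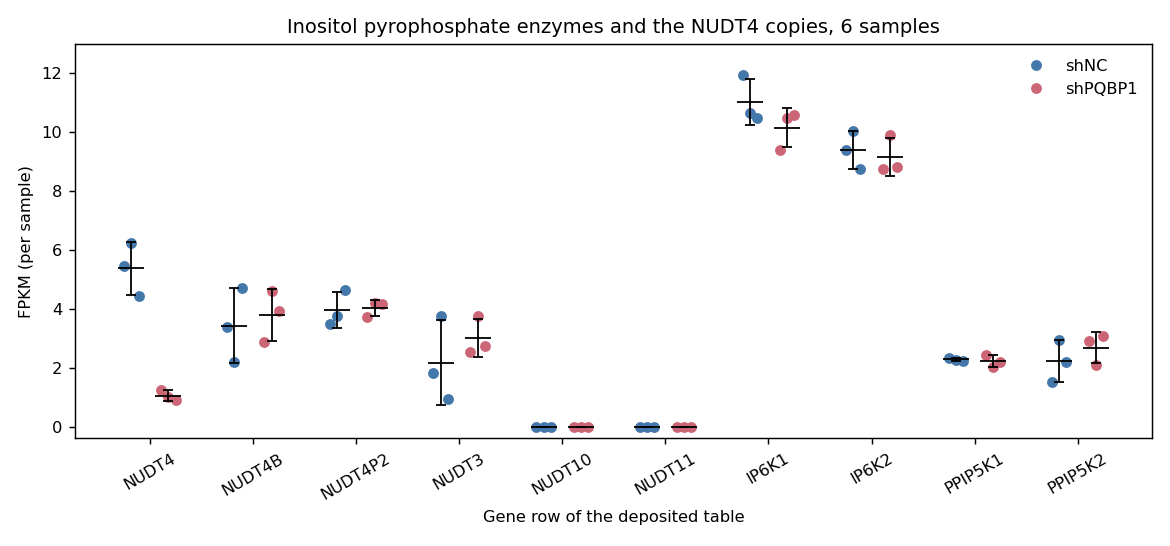
FPKM of the 8 pathway genes and of NUDT4B and NUDT4P2 in each of the 6 samples, with 1 point per sample and the mean ± SD of each group (n = 3) in black. NUDT4 was at 4.43 to 6.24 FPKM in shNC and at 0.89 to 1.26 in shPQBP1, while in every other row the 2 groups overlapped or were both at 0.

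Neither copy passed the test. NUDT4B (ENSG00000177144, chr1:148748774-148752415, plus strand) was 3.38, 2.2 and 4.72 FPKM in shNC and 2.86, 4.6 and 3.93 in shPQBP1, a log2 fold change of 0.18 (95% interval -0.55 to 0.91, adjusted p = 0.727). NUDT4P2 (ENSG00000271121, chr1:146298170-146298715, plus strand) was 3.5, 3.76 and 4.66 FPKM in shNC and 3.71, 4.21 and 4.18 in shPQBP1, a log2 fold change of 0.03 (95% interval -0.29 to 0.35, adjusted p = 0.903). The groups overlapped in each copy. Because NUDT4P2 has no 100-base window of its own, its level cannot be separated by sequence from those of NUDT4 and NUDT4B. For NUDT4B, 72.0% of these windows occur in NUDT4, so its level can be separated only in part.

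Added together, NUDT4, NUDT4B and NUDT4P2 gave 12.3, 12.2 and 13.8 FPKM in shNC and 7.83, 9.82 and 9.0 FPKM in shPQBP1. The sums of the groups did not overlap, and the mean went from 12.8 ± 0.892 to 8.88 ± 1.00 FPKM (SD, n = 3 each), a change of -30.5%. Such a sum is not conserved when fragments are assigned to another row, because the transcripts differ in length (9708, 3642 and 546 bases). Weighted by these lengths and expressed per length of NUDT4, a quantity added after seeing the data, the sum was 6.89 ± 0.408 in shNC and 2.70 ± 0.234 in shPQBP1, a change of -60.7%. That value holds for the canonical NUDT4 length only. The annotated coding isoforms of NUDT4 run from 531 to 9753 bases, and a shorter length would give the NUDT4 row less weight. Other lengths were not tried. The NUDT4 row made up 44.2%, 51.1% and 32.1% of the unweighted sum in the shNC samples and 16.1%, 10.3% and 9.89% in the shPQBP1 samples. Within shNC, sample 2 had the highest NUDT4 and the lowest NUDT4B, and sample 3 the lowest NUDT4 and the highest NUDT4B and NUDT4P2. The part that read assignment among the 3 rows plays in this was not tested.

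**Figure D3:**
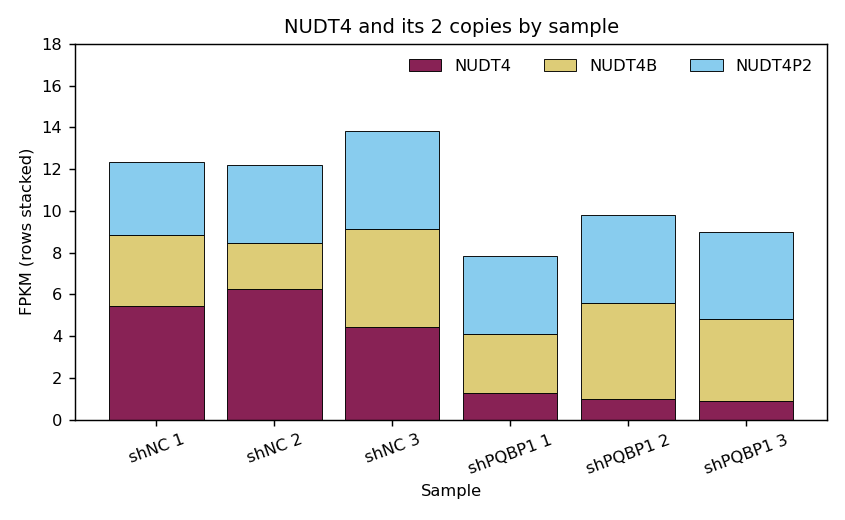
FPKM of NUDT4, NUDT4B and NUDT4P2 stacked for each sample, with samples on the horizontal axis and FPKM on the vertical axis from 0. The stack is 12.2 to 13.8 FPKM high in shNC and 7.83 to 9.82 in shPQBP1, and the NUDT4 part at the base is the part that is smaller.

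NUDT4 also shares sequence with a neighbour on the other strand. UBE2N (ENSG00000177889), the ubiquitin-conjugating enzyme that builds lysine-linked chains in DNA repair and NF-κB signalling, overlaps 24.5% of the exon bases of NUDT4 at their 3′ ends, and the strand setting of the authors' counting is not given in the sources used here. UBE2N was 16.61, 18.17 and 17.95 FPKM in shNC and 16.64, 16.84 and 16.98 in shPQBP1, a log2 fold change of -0.06 (95% interval -0.24 to 0.11, adjusted p = 0.605).

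Among the other DIPPs, NUDT3 (ENSG00000272325, chr6:34279679-34392669, minus strand) was 1.84, 3.77 and 0.93 FPKM in shNC and 2.55, 3.76 and 2.74 in shPQBP1. The groups overlapped, and the lowest and the highest of the 6 samples were both controls. The log2 fold change was 0.64 (SE 0.47, 95% interval -0.50 to 1.77, adjusted p = 0.421). The value ranged from 0.17 without shNC 3 to 1.12 without shNC 2.

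NUDT3 shares 43.3% of its exon bases with RPS10-NUDT3, a readthrough of the ribosomal protein gene RPS10 into NUDT3 on the same strand. That row was 0.48, 6.43 and 14.31 FPKM in shNC and 9.81, 0.72 and 10.75 in shPQBP1. It spread as widely within shNC as over all samples (0.48 to 14.31), and from 0.72 to 10.75 within shPQBP1. Its log2 fold change was 0.23 (95% interval -3.37 to 3.83, adjusted p = 0.933). Summed, NUDT3 and the readthrough were 9.25 ± 6.51 FPKM in shNC and 10.1 ± 4.91 in shPQBP1 (SD, n = 3 each). A further gene on the opposite strand (ENSG00000225339, 0.2 to 3.08 FPKM) covers 71.6% of the NUDT3 exon bases, so the NUDT3 value is uncertain.

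NUDT10 (ENSG00000122824, chrX:51332231-51337525, plus strand) and NUDT11 (ENSG00000196368, chrX:51490011-51496592, minus strand) were listed at 0 FPKM in all 6 samples, and no fold change is given for them. IP6K3, the IP6 kinase known from muscle, was likewise listed at 0 in 4 samples and at 0.02 and 0.03 FPKM in the others. Of the DIPP genes, the rows with values above 0 in these cells were therefore those of NUDT4 and NUDT3, with the copy NUDT4B. The NUDT4B value may hold fragments of NUDT4 transcripts.

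None of the 4 kinases passed the test. IP6K1 (ENSG00000176095, chr3:49724294-49786542, minus strand) was 11.94, 10.67 and 10.5 FPKM in shNC and 9.39, 10.48 and 10.58 in shPQBP1, a log2 fold change of -0.12 (95% interval -0.34 to 0.10, adjusted p = 0.440). IP6K2 (ENSG00000068745, chr3:48688003-48740353, minus strand) was 9.39, 10.06 and 8.77 FPKM in shNC and 8.76, 9.92 and 8.82 in shPQBP1, a log2 fold change of -0.04 (95% interval -0.26 to 0.19, adjusted p = 0.819). The groups overlapped in both genes, and these were the narrowest intervals of the pathway. Both enzymes phosphorylate inositol hexakisphosphate, and their summed level was 20.4 ± 1.06 FPKM in shNC and 19.3 ± 1.13 in shPQBP1 (SD, n = 3 each).

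The bifunctional PPIP5 kinases, which carry a kinase and a phosphatase domain, were expressed at lower levels. PPIP5K1 (ENSG00000168781, chr15:43533462-43590208, minus strand) was 2.35, 2.28 and 2.24 FPKM in shNC and 2.44, 2.03 and 2.2 in shPQBP1, a log2 fold change of -0.04 (95% interval -0.31 to 0.22, adjusted p = 0.814). PPIP5K2 (ENSG00000145725, chr5:103120149-103212799, plus strand) was 1.51, 2.95 and 2.21 FPKM in shNC and 2.9, 2.08 and 3.08 in shPQBP1, a log2 fold change of 0.29 (95% interval -0.36 to 0.94, adjusted p = 0.517). The groups overlapped here too. Without shNC 1, the lowest sample for PPIP5K2, its log2 fold change was 0.05.

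**Figure D4:**
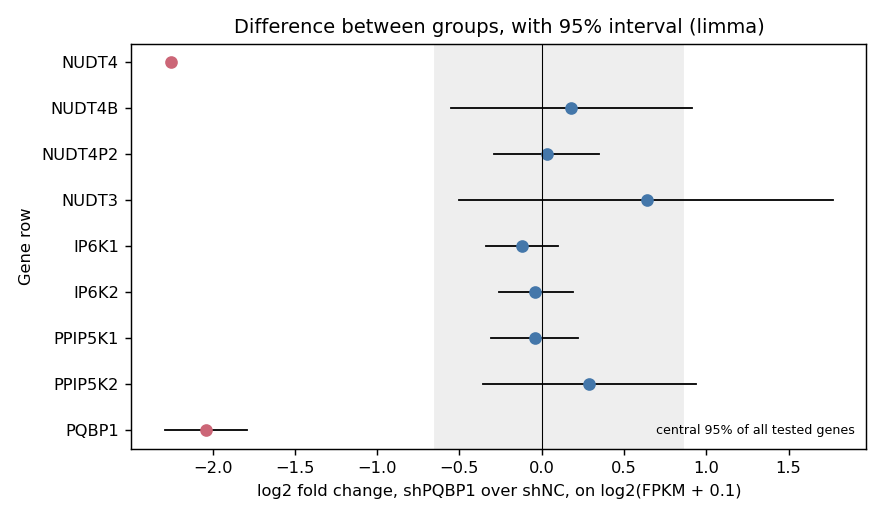
Log2 fold change of shPQBP1 over shNC on log2(FPKM + 0.1) for the tested pathway genes, the NUDT4 copies and PQBP1, with the 95% interval from limma as a line (none is drawn for NUDT4, which was not tested) and the central 95% of all tested genes shaded, -0.65 to 0.86. NUDT4 at -2.25 lies beside PQBP1 at -2.04, and the other rows have intervals that include 0.

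Of the 5 tested genes other than NUDT4, 0 passed an adjusted p under 0.05, against 2.91% of all tested genes, 0 passed an unadjusted p under 0.05, against 23.6%, and 0 had groups that did not overlap, against 34.4%. Their smallest unadjusted p was 0.222 (limma). Their log2 fold changes ran from -0.12 to 0.64 with a median of -0.04, where the median over all tested genes was 0.021.

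In order of level, the control samples ran from IP6K1 (11.0 ± 0.787 FPKM) through IP6K2 (9.41 ± 0.645) and NUDT4 (5.38 ± 0.908) to PPIP5K1 (2.29 ± 0.0557), PPIP5K2 (2.22 ± 0.720) and NUDT3 (2.18 ± 1.45), each with SD and n = 3. The sample ranges of neighbours did not overlap down to NUDT4, and those of PPIP5K1, PPIP5K2 and NUDT3 did. In the knockdown samples IP6K1 (10.2 ± 0.660 FPKM) and IP6K2 (9.17 ± 0.653) overlapped, NUDT3 (3.02 ± 0.651), PPIP5K2 (2.69 ± 0.533) and PPIP5K1 (2.22 ± 0.206) overlapped in turn, and NUDT4 (1.05 ± 0.189) lay below them all. NUDT4 thus moved from rank 3 to rank 6 of the 8 genes.

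Within the DIPPs, NUDT4 made up 74.8%, 62.3% and 82.6% of the summed NUDT4 and NUDT3 FPKM in shNC and 33.1%, 21.2% and 24.5% in shPQBP1. NUDT4 was the larger of these rows in every control sample and the smaller in every knockdown sample. That order depends on the NUDT3 row alone, since NUDT3 with RPS10-NUDT3 summed to 2.32, 10.2 and 15.2 FPKM in shNC and exceeded NUDT4 in shNC 2 and shNC 3. The summed FPKM of NUDT4 and NUDT3, without NUDT4B, was 7.56 ± 2.34 in shNC and 4.07 ± 0.613 in shPQBP1 (SD, n = 3 each), while that of the 4 kinases was 25.2, 26.0 and 23.7 in shNC and 23.5, 24.5 and 24.7 in shPQBP1. The ratio of kinase FPKM to that of NUDT4 and NUDT3 was 3.49 ± 0.917 in shNC and 6.03 ± 0.838 in shPQBP1 (SD, n = 3 each). These sums contain NUDT4 and carry no test, and they are transcript levels, not enzyme activities.

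The genes around the pathway were read from 6 lists with 71 genes in all, of which 70 were in the table and 58 were tested. At an adjusted p under 0.05, 1 gene was higher upon PQBP1 knockdown and 0 were lower, against 1.73% and 1.18% of all tested genes. At an unadjusted p under 0.05 there were 6 in each direction, 20.7% of the 58 against 23.6% of all tested genes. The groups did not overlap in 22 (37.9%, against 34.4%), and the median log2 fold change was -0.02.

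The gene that passed was SLC20A1, which encodes the sodium-dependent phosphate importer PiT-1. It was 60.45, 56.32 and 56.79 FPKM in shNC and 89.35, 94.63 and 94.93 in shPQBP1. All knockdown samples lay above all control samples, and SLC20A1 rose by 0.68 on the log2 scale (SE 0.07, 95% interval 0.52 to 0.84, adjusted p = 0.00983), a 1.61-fold higher value. The size kept between 0.66 and 0.72 with any 1 sample left out, but the adjusted p was 0.0539 without shNC 3 and 0.0535, 0.0686 and 0.0767 without shPQBP1 1, 2 and 3.

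SLC20A1 belonged to the list of phosphate transport and inositol pyrophosphate partners, in which 10 of 11 genes were tested. At an adjusted p under 0.05, 1 rose and 0 fell, against 1.73% and 1.18% of all tested genes. XPR1, the phosphate exporter that binds inositol pyrophosphates, was 4.45, 6.43 and 6.3 FPKM in shNC and 7.97, 7.31 and 8.14 in shPQBP1, a log2 fold change of 0.46 (95% interval 0.08 to 0.84) that did not pass (adjusted p = 0.157). The knockdown values were all above the control values, with shNC 1 the lowest, and without it the log2 fold change was 0.29. TELO2, a component of the TTT complex that stabilises PI3K-like kinases and a substrate of CK2 in work on inositol pyrophosphates, was 7.01, 5.49 and 5.47 FPKM in shNC and 4.36, 4.85 and 4.35 in shPQBP1 (log2 fold change -0.39, adjusted p = 0.139).

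Upstream of the pathway, 0 genes passed the adjusted threshold, against 1.73% higher and 1.18% lower among all tested genes. With so few genes in a list, 0 calls lie close to those shares. Among 10 tested inositol phosphate kinases and phosphatases the log2 fold changes ran from -0.42 to 0.45 with a median of -0.05. ITPKB, which phosphorylates inositol trisphosphate, had the smallest p of them, at 2.49, 2.34 and 2.29 FPKM in shNC and 1.65, 2.08 and 1.84 in shPQBP1 (log2 fold change -0.34, adjusted p = 0.166). The 5 tested genes of inositol synthesis, recycling and transport ran from -0.13 to 0.29.

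Of the 7 tested phosphoinositide phospholipases C, the enzymes that release inositol trisphosphate from membranes, 0 passed the adjusted threshold and 3 had an unadjusted p under 0.05 (42.9%, against 23.6% of all tested genes). PLCG2 was 0.91, 1.08 and 1.1 FPKM in shNC and 1.55, 1.53 and 1.61 in shPQBP1 (log2 fold change 0.56, adjusted p = 0.0850). PLCE1 was 1.3, 2.28 and 1.98 FPKM in shNC and 3.03, 2.55 and 3.15 in shPQBP1 (log2 fold change 0.65, adjusted p = 0.148). PLCD3 lay in the other direction, with a log2 fold change of -0.36 (adjusted p = 0.20).

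**Figure D5:**
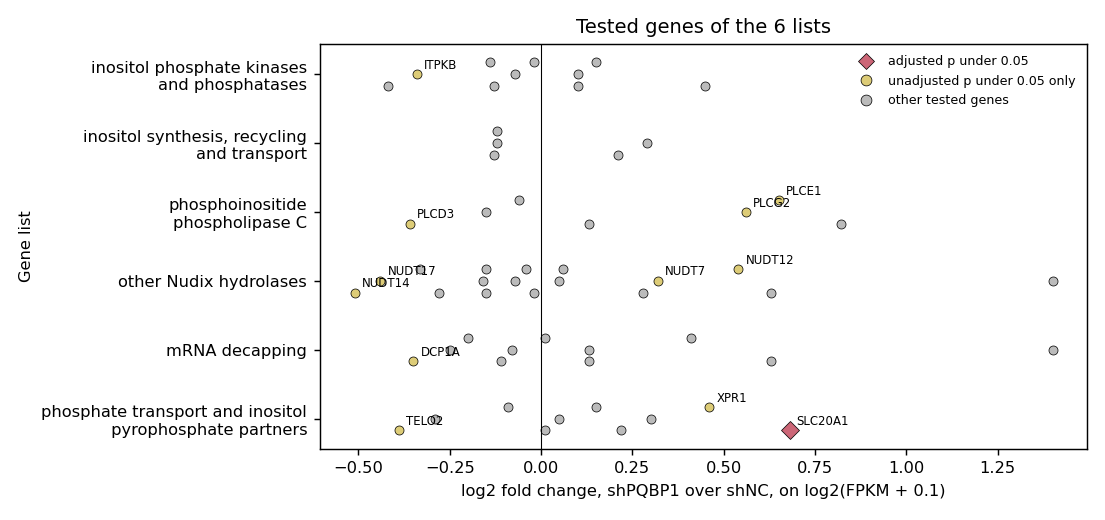
Log2 fold change of shPQBP1 over shNC on log2(FPKM + 0.1) for each tested gene of the 6 lists, with 1 line of points per list (NUDT16 and DCP2 belong to both the Nudix and the decapping list). SLC20A1 at 0.68 is the only gene at an adjusted p under 0.05 (diamond), and the labelled circles passed an unadjusted p under 0.05 only.

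The other Nudix hydrolases share the catalytic motif with the DIPPs and act on other diphosphates. Of 17 tested, 0 passed an adjusted p under 0.05, against 2.91% of all tested genes. At an unadjusted p under 0.05 there were 4 (23.5%, against 23.6% of all tested genes). NUDT12, a peroxisomal NADH diphosphatase that also removes NAD caps from RNA, had a log2 fold change of 0.54 (adjusted p = 0.138), and NUDT7, a peroxisomal coenzyme A diphosphatase, one of 0.32 (adjusted p = 0.206). NUDT14, a UDP-glucose diphosphatase, had a log2 fold change of -0.51 (adjusted p = 0.180), and NUDT17 one of -0.44 (adjusted p = 0.172). The median of the list was -0.04.

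NUDT16, which cleaves caps and diphosphates, was 0.92, 0.78 and 0.89 FPKM in shNC and 0.75, 4.61 and 4 in shPQBP1. The first knockdown sample lay below all controls and the others far above them. The log2 fold change of 1.40 had a 95% interval from -0.16 to 2.97 (adjusted p = 0.246). The shNC mean of NUDT16 was 0.863 FPKM, under the filter's 1, and it was tested only because its shPQBP1 mean was 3.12. Its fold change and p are therefore given as a description. NUDT16 was chosen for mention after its values were seen. Among the 11 tested genes of mRNA decapping, the function ascribed to NUDT3, 0 passed the adjusted threshold, against 2.91% of all tested genes. DCP1A, a cofactor of the decapping enzyme, had the smallest p, at 6.02, 7.24 and 7.87 FPKM in shNC and 5.09, 5.91 and 5.46 in shPQBP1 (log2 fold change -0.35, adjusted p = 0.167).

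Within 500 kb of NUDT4 on chromosome 12 the table held 14 genes, of which 8 were tested and 2 passed an adjusted p under 0.05, both in the direction opposite to NUDT4 (all tested genes, 2.91% past this threshold and 1.73% higher). CRADD, an adaptor that recruits caspase-2, was 1.79, 1.57 and 1.74 FPKM in shNC and 3.15, 2.81 and 3.11 in shPQBP1, and it rose by 0.80 on the log2 scale (SE 0.11, adjusted p = 0.0234). SOCS2-AS1, a long non-coding RNA antisense to the cytokine signalling suppressor gene SOCS2, was 0.68, 0.67 and 0.76 FPKM in shNC and 1.52, 1.28 and 1.38 in shPQBP1, and it rose by 0.89 (SE 0.15, adjusted p = 0.0384). Neither gene's groups overlapped. The shNC mean of SOCS2-AS1 was 0.703 FPKM, under the filter's 1, and it was tested only because its shPQBP1 mean was 1.39. Its call is therefore given as a description.

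These calls rested on the full set of samples, since leaving out shNC 2, shNC 3 or any shPQBP1 sample left 0 of the neighbours past the threshold. SOCS2 itself had a log2 fold change of 0.53 (95% interval -0.78 to 1.84). Its span overlaps that of its antisense partner in part, and there reads cannot be told apart without strand. The remaining tested neighbours, EEA1 (0.83), MRPL42 (0.39), RPL41P5 (-0.21), the pseudogene ENSG00000186076 (0.96) and UBE2N (-0.06), did not pass. No neighbour that passed the filter on low values was lower by more than 0.21 on the log2 scale.

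The 5 tested genes whose profile over the 6 samples was nearest to that of NUDT4, by the root-mean-square difference of centred log2 values, were PQBP1 (0.21), BTBD19 (0.25), FBLN1 (0.29), LAPTM5 (0.30) and MT-TF (0.31). FBLN1, which encodes the matrix protein fibulin-1, was 2.42, 2.51 and 2.28 FPKM in shNC and 0.71, 0.64 and 0.61 in shPQBP1. LAPTM5, a lysosomal membrane protein, was 5.76, 5.06 and 5.15 FPKM in shNC and 0.78, 1.16 and 0.81 in shPQBP1. The likeness was set by the gap between the groups, by which NUDT4 was picked, so these genes are listed as a description. MT-TF is a mitochondrial tRNA of 71 bases, shorter than the RNAs that poly(A) libraries are made to capture.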

How the data were processed

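Short-read RNA-seq of 3 shNC and 3 shPQBP1 samples of HEY cells was used. The FPKM values were deposited by the authors in 1 table of 32679 genes, rounded to 2 decimals. Per the methods and the submitters' processing notes, reads were mapped to hg38 with HISAT2 (version 2.2.0), sorted with SAMtools (version 1.9), assembled with StringTie (version 1.3.0) and compared with edgeR. The annotation release, strand setting and handling of multi-mapping reads are not given in the sources used here. The authors' columns of fold change, p-value, q-value and regulation were not used, and every column with a value per sample was used.

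The groups were compared on log2(FPKM + 0.1) in R (version 4.3.3) with limma (version 3.58.1). The functions lmFit and eBayes (trend on) gave two-sided p-values, which were adjusted by Benjamini-Hochberg over the 11413 genes whose mean FPKM reached 1. A fold change on this scale understates the change of low genes. The submitters call the samples biological triplicates, and p-values weigh the group difference against the spread between those samples only. The steps were checked on simulated data. Positions, transcripts and sequences came from hg38 and GENCODE release 44, with alignments by Biopython (version 1.88). Transcripts of that release may differ from those the authors used.

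The members and lists were chosen with earlier results of these data known. Named were the 8 members, the NUDT4 copies, IP6K3, PQBP1, list genes at an adjusted p under 0.05, for each list up to 2 genes in each direction with the largest log2 fold change at an unadjusted p under 0.05, tested neighbours within 500 kb of NUDT4, and the 5 nearest profiles. BPNT2 was listed under an older symbol, and 1 list gene, SLC34A2, was not analysed here. Alternatives changed the scaling (median of ratios, quantiles or, for levels, a common total), the filter (any value above 0, or a mean FPKM of 10), the pseudocount (1 or 0.01) and the variance model (no trend). Others added the replicate number as a block, corrected for GC content and length of the transcript, or left out each sample in turn. Sums of NUDT4 with its copies, plain and weighted by length, and of NUDT3 with RPS10-NUDT3 were chosen after seeing the data.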

Additional observations from a re-analysis of the deposited data

How the results depend on the processing

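The log2 fold change of NUDT4 upon PQBP1 knockdown ran from -2.46 (GC content and transcript length correction) to -1.63 (pseudocount 1) over the 14 alternatives that kept its row. It was -0.52 with the NUDT4, NUDT4B and NUDT4P2 rows summed and -1.32 with them summed by length. NUDT4 was picked for its fall in these samples, so its sign here lends no support and only its size is described. A mean FPKM of at least 10 left NUDT4 out. None of the other 5 members tested passed an adjusted p under 0.05 under any alternative run for it. Their log2 fold changes ranged from -0.15 to 0.00 for IP6K1, -0.09 to 0.05 for IP6K2, -0.11 to 0.02 for PPIP5K1, -0.10 to 0.51 for PPIP5K2 and 0.17 to 1.12 for NUDT3, and the sign of IP6K2, PPIP5K1 and PPIP5K2 was not kept. NUDT4B ranged from -0.10 to 0.44 and NUDT4P2 from -0.05 to 0.15. The NUDT4 share of NUDT4 and NUDT3 FPKM in shNC was 73.3% with each sample rescaled to a common total too.

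The count of genes past an adjusted p under 0.05, 332 in the main analysis, was 190 with genes above 0 in at least 1 sample tested, 211 with a mean FPKM of at least 10, 938 with the GC and length correction and 30 to 466 with 1 sample left out (30 without shPQBP1 3, 36 without shPQBP1 2, 46 without shPQBP1 1, 66 without shNC 3, 93 without shNC 2, 466 without shNC 1). At a fold over 2 with an unadjusted p under 0.05, 173 genes became 662, 40 and 83 with genes above 0, a mean FPKM of at least 10 and a pseudocount of 1, and 143 to 314 with 1 sample left out. The list genes called, 1 in the main analysis, were 2 without the mean-variance trend (SLC20A1 and PLCG2), 4 with the GC and length correction (SLC20A1, PLCG2, DCP1A and IMPA1) and 0 to 1 with 1 sample left out. Without shPQBP1 1 the gene called was NUDT16. That call is given as a description, since NUDT16 was tested only through its shPQBP1 values and the sample left out was its lowest (0.75 FPKM). The neighbours called, 2 in the main analysis, were 1 under quantile normalization, 1 with genes above 0, 0 with a mean FPKM of at least 10 and 0 to 1 with 1 sample left out. For the filters, fewer or more genes were tested, and for the other alternatives the cause was not tested.

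Same-numbered samples of the groups did not deviate together (r = -0.186, -0.138 and -0.0114 across genes), so the numbers were not taken as pairs. With the replicate number as a block, 0 genes passed an adjusted p under 0.05, 185 passed a fold over 2 with an unadjusted p under 0.05, and 0 list genes, 0 neighbours and 0 members were called. PQBP1 then had an adjusted p of 0.0686 and SLC20A1 one of 0.157. With 3 samples a group and depth unknown, a p that missed the threshold does not show equal levels, and overlap among NUDT4, NUDT4B, NUDT4P2, RPS10-NUDT3, NUDT3 and UBE2N limits what single rows can show.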
